A study of Homo sapiens with 12 samples.

Results

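The genes described here are the 4 STEAP metalloreductases, STEAP1, STEAP2, STEAP3 and STEAP4, taken from the 63677 gene identifiers counted in each library by matching their Ensembl identifiers. All 4 have an entry in every library. RNA was sequenced from LNCaP, an established androgen-responsive line from a metastasis of prostate cancer, in which a TALEN (an engineered nuclease) had removed the start codon of Bag-1L, the longest protein made from the BAG1 mRNA, a cochaperone. This Bag-1L KO line was compared with a TALEN control line in 3 conditions: full medium (FM), with ordinary serum and no starvation; EtOH, after 72 h of hormone starvation in charcoal-treated serum and 16 h of the ethanol vehicle; and DHT, after the same starvation and 16 h of 10 nM dihydrotestosterone, an androgen. The 12 samples formed 6 groups (Control FM, KO FM, Control EtOH, KO EtOH, Control DHT and KO DHT) with 2 replicates each. The study's methods describe the edited cells as single clones isolated by serial dilution, so the effect of the KO and of the clone cannot be told apart.

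The STEAP proteins (six-transmembrane epithelial antigens of the prostate) are membrane proteins that carry haem. STEAP2, STEAP3 and STEAP4 reduce ferric iron and cupric copper, the step that readies these metals for transport into the cytosol. Each of these has an oxidoreductase domain that takes electrons from NADPH, whereas STEAP1 lacks that domain. STEAP1 is abundant in prostate cancer and is used there as a target for antibodies, and STEAP3 is the ferrireductase of the endosomes in which transferrin delivers iron.

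In the GRCh37 annotation (GENCODE), STEAP1 (ENSG00000164647) occupies chr7:89783770-89794143 and STEAP2 (ENSG00000157214) chr7:89796904-89867451, both on the plus strand and next to each other. STEAP4 (ENSG00000127954) lies on the minus strand of the same chromosome at chr7:87900207-87936209. STEAP3 (ENSG00000115107) is on the plus strand of another chromosome, at chr2:119981407-120023228. All 4 are protein-coding, and the counts cover the exons of each gene. A relative, STEAP1B (ENSG00000105889), lies elsewhere at chr7:22459063-22767232, on the minus strand.

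The promoter windows of STEAP1 and STEAP2 are printed because both genes were higher in the KO after starvation. That of STEAP1B, a relative of STEAP1, is printed because the RefSeq windows are almost the same while the counts differed widely. Each is the 250 bases before the gene's start in RefSeq (build GRCh38.p14), written 5′ to 3′ on the gene's strand. In the STEAP1 and STEAP1B sequences capitals mark the 6 bases that differ between them, and in STEAP2 they mark a GC box, a short motif common in promoters. The windows are at chr7:90154219-90154468 on the plus strand for STEAP1, chr7:22500189-22500438 on the minus strand for STEAP1B and chr7:90211490-90211739 on the plus strand for STEAP2.
STEAP1: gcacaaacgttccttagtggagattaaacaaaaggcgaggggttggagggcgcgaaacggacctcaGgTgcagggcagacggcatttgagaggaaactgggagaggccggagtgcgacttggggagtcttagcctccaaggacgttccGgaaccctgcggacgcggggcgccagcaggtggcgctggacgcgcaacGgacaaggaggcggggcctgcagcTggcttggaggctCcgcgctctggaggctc
STEAP1B: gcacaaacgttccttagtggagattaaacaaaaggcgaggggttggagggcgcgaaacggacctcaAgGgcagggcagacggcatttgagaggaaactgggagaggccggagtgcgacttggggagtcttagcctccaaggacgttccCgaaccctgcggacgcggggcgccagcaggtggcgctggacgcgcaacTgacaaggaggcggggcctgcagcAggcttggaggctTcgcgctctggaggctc
STEAP2: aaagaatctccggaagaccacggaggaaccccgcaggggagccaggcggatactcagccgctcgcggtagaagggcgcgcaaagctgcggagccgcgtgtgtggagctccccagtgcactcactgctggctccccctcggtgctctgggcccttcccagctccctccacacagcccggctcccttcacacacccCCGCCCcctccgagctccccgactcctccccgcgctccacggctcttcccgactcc

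The STEAP1 and STEAP1B windows were 97.6% identical. The hormone response half-site AGAACA, searched on both strands and so also read as TGTTCT, was in none of the 3 windows, nor in those of STEAP3 and STEAP4 or at a second RefSeq start of STEAP2, and 12.4% of 35116 RefSeq promoter windows held it. The GC box GGGCGG, which reads as CCGCCC on the other strand, was absent from the STEAP1 and STEAP1B windows, present once in the STEAP2 and STEAP4 windows and 3 times in that of STEAP3, and 42.6% of all windows held it. The annotations place the start of STEAP2 differently: its gene begins 13.1 kb beyond the start of STEAP1 in GENCODE, and its RefSeq starts lie 57.3 and 59.4 kb beyond it. The motif counts for STEAP2 therefore hold for the RefSeq starts only. The STEAP1B window likewise stands before its RefSeq start, whereas its GENCODE gene has 10 annotated transcripts over chr7:22459063-22767232. Whether the counted STEAP1B transcripts begin at that window was not tested, so the likeness of the windows cannot be set directly against the counts.

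The libraries held between 20826843 and 30354666 gene counts. The luminal prostate markers (KLK2, KLK3, TMPRSS2, HOXB13, FOLH1, KRT8 and KRT18) summed to between 49200 and 120000 normalized counts per library, against at most 32.9 for the basal markers KRT5, KRT14 and TP63 and at most 7.06 for the leukocyte markers PTPRC, CD3E and CD14. The stromal list summed to between 380.0 and 1020.0, nearly all of it COL1A1, and VWF, an endothelial gene, lay between 127.0 and 241.0. The replicates of Control EtOH lay furthest apart, with a chi-square per degree of freedom of 36.46 over genes against 3.19 to 18.6 in the other groups, so the called STEAP results that use Control EtOH are also given without each of its libraries. BAG1, the edited gene, had log2 differences between KO and control of -0.94 in EtOH, -1.14 in DHT and -0.43 in FM (adjusted p 6.35e-06, 7.71e-09 and 0.0682, DESeq2), and its EtOH value dropped under the fold threshold without Control EtOH replicate 2 (-0.57). These counts cover the whole BAG1 mRNA and do not separate its protein forms.

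Detection differed sharply among the 4 genes. Read counts were between 2301 and 6719 per library for STEAP1, between 5739 and 23012 for STEAP2 and between 1033 and 1661 for STEAP3. STEAP4, also known as STAMP2, had 0 to 7 counts per library. Per kilobase of annotated exon, the mean level over the 12 samples was 2850 normalized counts for STEAP1, 1290 for STEAP2, 287 for STEAP3 and 0.39 for STEAP4. These levels placed STEAP1 at rank 297, STEAP2 at rank 787, STEAP3 at rank 3775 and STEAP4 at rank 15236 of 15920 protein-coding genes. STEAP2 had the larger read count but STEAP1 the higher level per kilobase, since the annotated exons of STEAP2 span 8720 bases and those of STEAP1 only 1544.

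STEAP4 was at or under the floor of detection taken here, 3 counts per library (0.0988 to 0.144 CPM, counts per 1000000 gene counts), in 4 of the 12 libraries. In control cells it had 7 and 3 counts with EtOH, 5 and 5 with DHT and 6 and 6 in FM. In KO cells it had 5 and 2 with EtOH, 0 and 2 with DHT and 7 and 4 in FM. The library with 0 counts allows up to 3. With 52 counts in all, DESeq2 gave no adjusted p for STEAP4 in any comparison, and a difference between groups was not detectable at this depth. Of its annotated exon bases, 6.95% overlap a long non-coding gene on the opposite strand.

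Reads that align to several places are left out of such counts. Of the 50-base stretches in the STEAP1 transcripts, 22.5% also occur in STEAP1B, against 1.495% shared with any gene for STEAP2, 1.355% for STEAP4 and 0 for STEAP3. Reads that lie wholly within such stretches may have been left out, and how many was not tested, so the level of STEAP1 is uncertain. STEAP1B itself had between 1 and 9 counts per library, with 5.215% of its stretches shared with STEAP1. The antisense gene STEAP2-AS1 had between 4 and 19 counts and shares no annotated exon bases with STEAP1 or STEAP2. STEAP3 overlaps its antisense gene STEAP3-AS1 over 10.96% of its exon bases, and STEAP3-AS1 had at most 6 counts in a library.

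**Figure D1:**
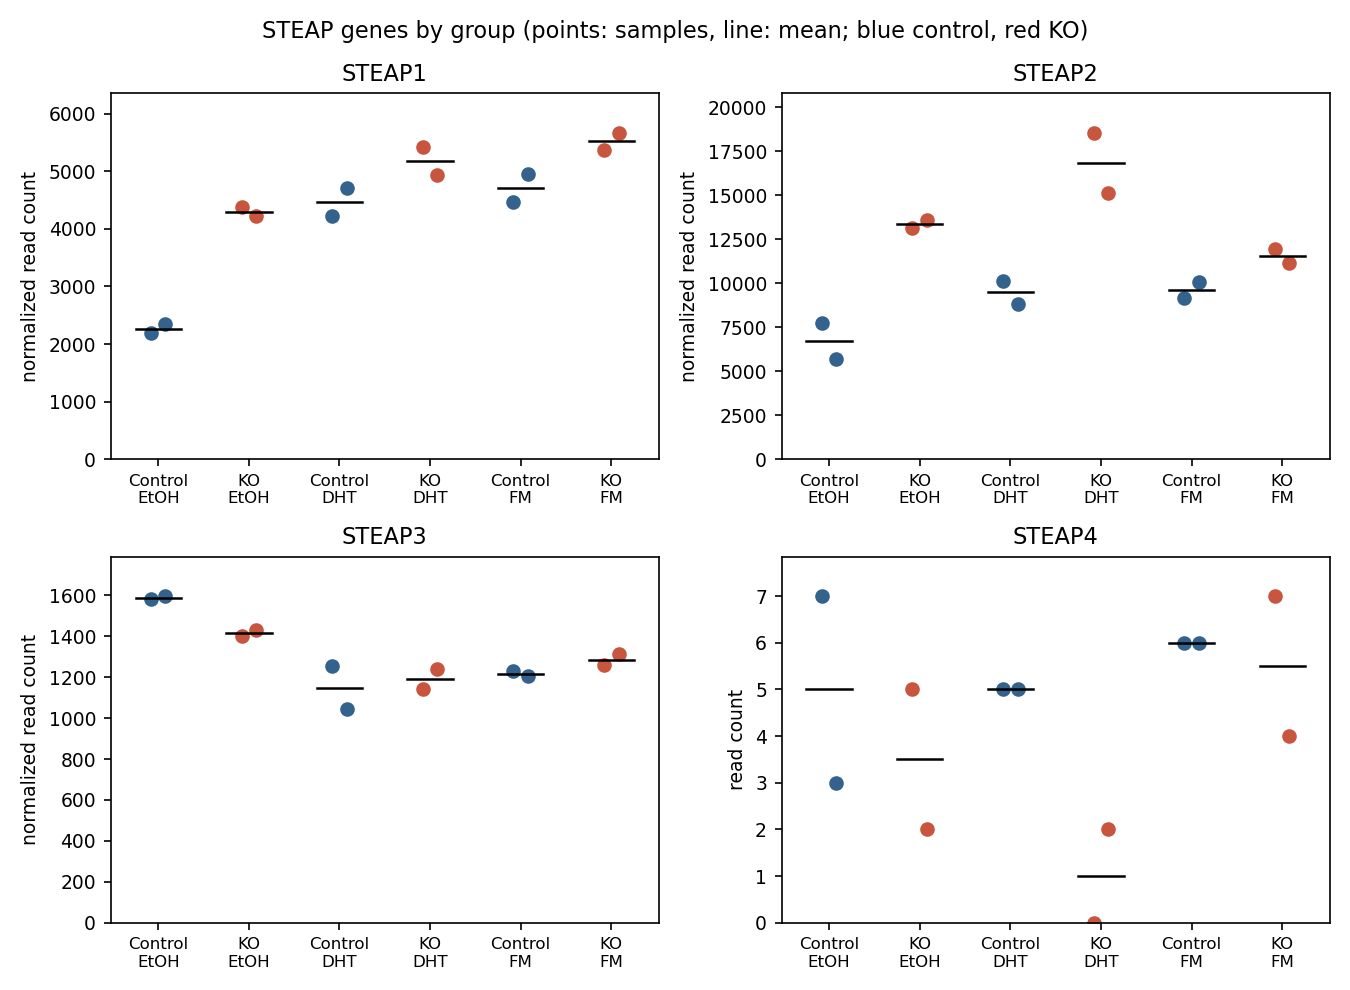
Normalized read counts (STEAP1, STEAP2 and STEAP3) and read counts (STEAP4) in each of the 6 groups, with 1 point per sample, a line at the mean of 2, and y axes that start at 0. STEAP1 was lowest in the 2 Control EtOH samples (2190 and 2348), STEAP2 highest in the 2 KO DHT samples (18566 and 15139), STEAP3 highest in Control EtOH (1581 and 1596), and no STEAP4 point was above 7 counts.

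The response to androgen was tested as DHT against EtOH in each line. STEAP1 rose in control cells, where STEAP2 (higher) and STEAP3 (lower) differed by less than the 1.5-fold threshold. In KO cells no STEAP gene was called. A gene was called when its Benjamini-Hochberg adjusted p over all genes tested was at most 0.05 (DESeq2) and its fold change at least 1.5. Each group had 2 samples, and the p-values rest on the spread between replicates as estimated in a single fit over all 12 samples. They do not measure the spread of the 2 compared groups alone. The labels call the samples replicates and do not say whether they came from separate cultures. In control cells 11.4% of the 17535 genes tested were called, 6.04% higher and 5.37% lower. In KO cells 7.68% of 17535 were called. In these bulk libraries a change in RNA per cell and a change in the share of cells that express a gene cannot be told apart. Of the 3 STEAP genes tested, 1 was called in control cells and 0 in KO cells.

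STEAP1 had 2190 and 2348 normalized counts in Control EtOH and 4229 and 4701 in Control DHT. The pairs do not overlap, and the means rose from 2269 ± 112 to 4465 ± 333 (SD, n = 2), a log2 fold change of 0.98 with a standard error of 0.11 (adjusted p = 1.82e-17, DESeq2). In KO cells the counts were 4383 and 4217 in EtOH and 5421 and 4926 in DHT. These pairs do not overlap either, but the KO started from a level close to that of the control with DHT. The difference was 0.27 with a standard error of 0.11 (adjusted p = 0.0834, DESeq2). In a fit of only the 2 groups compared it was 0.29, under 1.5-fold, with an adjusted p of 0.00978 (DESeq2). Without Control EtOH replicate 1 or 2, the rise in control cells was 0.93 or 1.03 and was still called.

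The difference between these responses, KO minus control, was -0.71 for STEAP1 with a 95% interval of -1.01 to -0.41 (adjusted p = 0.00209, DESeq2). Among 13478 genes tested for this difference 0.408% were called, and STEAP1 ranked 19 by size among the 25 called as lower in the KO. The sign held in every fit tried, with values between -0.78 and -0.63, but the call did not. Without Control EtOH replicate 1 or 2 it was -0.66 or -0.76, both still called. The adjusted p was 0.137 with edgeR, 0.193 in a DESeq2 fit of only the 4 groups compared, and 0.251, 0.165, 0.0796 and 0.0849 (DESeq2) without KO EtOH replicate 1, KO EtOH replicate 2, Control DHT replicate 2 and KO DHT replicate 2.

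STEAP2 had 7733 and 5709 normalized counts in Control EtOH, the widest gap between replicates of this gene relative to its level, and 10130 and 8852 in Control DHT. The groups do not overlap. The log2 fold change was 0.50 with a standard error of 0.15 (adjusted p = 0.00653, DESeq2), a 1.41-fold difference that is under the threshold of 1.5-fold. The value was 0.73 (called) without Control EtOH replicate 1 and 0.59 (called) without Control DHT replicate 2. It was 0.29 (adjusted p = 0.0765) without Control EtOH replicate 2 and 0.40 (adjusted p = 0.125) without Control DHT replicate 1, and in a fit of only the 2 groups compared its adjusted p was 0.12 (DESeq2). In KO cells STEAP2 had 13138 and 13574 counts in EtOH and 18566 and 15139 in DHT. The change was 0.34 ± 0.15 (SE; adjusted p = 0.132, DESeq2). A fit of only the 2 KO groups gave 0.36, under 1.5-fold, with an adjusted p of 0.00362 (DESeq2). The difference between the responses was -0.16 with an interval of -0.57 to 0.25 (adjusted p = 1.0, DESeq2), so that a smaller or a slightly larger response in the KO are both within the error.

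STEAP3 was lower with DHT in control cells. It had 1581 and 1596 normalized counts in Control EtOH and 1253 and 1042 in Control DHT, without overlap, a log2 change of -0.47 (SE 0.12, adjusted p = 0.000702, DESeq2) that did not reach 1.5-fold. It was past the threshold, at -0.61, without Control DHT replicate 1. Without Control DHT replicate 2 it was -0.34 (adjusted p = 0.0534), and in a fit of only the 2 groups compared its adjusted p was 0.18 (DESeq2). In KO cells it had 1403 and 1429 counts in EtOH and 1144 and 1239 in DHT. The change was -0.25 ± 0.12 (SE; adjusted p = 0.167, DESeq2). A fit of only the 2 KO groups gave -0.23 with an adjusted p of 0.114 (DESeq2). The difference between the responses was 0.22 (adjusted p = 1.0, DESeq2).

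**Figure D2:**
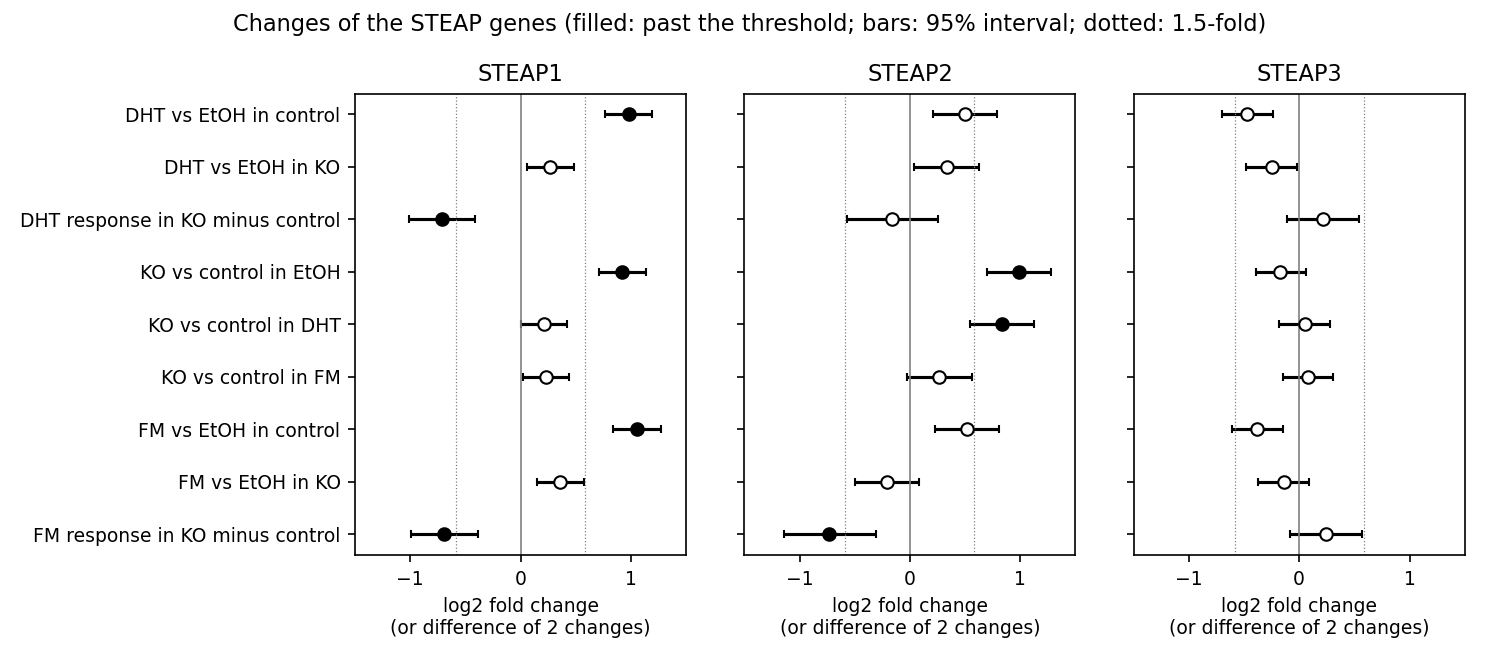
Fitted log2 fold changes of STEAP1, STEAP2 and STEAP3 in the 9 comparisons (x axis), with 95% intervals, filled circles where the threshold was passed, and dotted lines at 1.5-fold. STEAP1 was called with DHT in control (0.98), for KO against control in EtOH (0.92) and for FM in control (1.05), and STEAP2 for KO against control in EtOH (0.99) and DHT (0.83). The differences in response, KO minus control, were called for STEAP1 with DHT (-0.71) and FM (-0.69) and for STEAP2 with FM (-0.73), and STEAP3 was called in none.

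KO cells were next compared with control cells in each condition. After starvation with vehicle, STEAP1 and STEAP2 were both about as much higher in the KO, at 0.92 ± 0.11 and 0.99 ± 0.15 (log2, SE; adjusted p = 7.64e-15 and 3.87e-09, DESeq2). The means were 4300 ± 118 against 2269 ± 112 normalized counts for STEAP1 and 13360 ± 309 against 6721 ± 1430 for STEAP2 (SD, n = 2 each). STEAP3 was not called, with 1416 ± 18.3 in the KO and 1588 ± 10.5 in control (-0.17, adjusted p = 0.467, DESeq2). Of 16521 genes tested, 5.11% were called, 2.8% higher and 2.31% lower in the KO. Without Control EtOH replicate 1 or 2, the difference was 0.87 or 0.97 for STEAP1 and 1.23 or 0.79 for STEAP2, all still called. The neuroendocrine list CHGA, SYP and ENO2 moved with the line too. It summed to 192.0 to 217.0 normalized counts in Control EtOH and 397.0 in each KO EtOH library. Most of it was ENO2, while CHGA had 24 counts over all 12 libraries. The list was also higher in the KO with DHT (329.0 to 354.0 against 212.0 to 220.0). The same held in FM (126.0 to 135.0 against 64.2 to 87.2), where no STEAP gene was called between the lines. The luminal list was higher in the KO too, with EtOH (61300 to 61400 against 49200 to 58600) and in FM (95600 to 106000 against 67100 to 68500). With DHT the lines overlapped in the luminal list (108000 to 113000 against 110000 to 120000). The part of these marker differences in the STEAP differences was not tested.

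With DHT, STEAP2 was the only STEAP gene called. It had 18566 and 15139 normalized counts in KO DHT and 10130 and 8852 in Control DHT, which do not overlap, a difference of 0.83 ± 0.15 (log2, SE; adjusted p = 1.13e-06, DESeq2). STEAP1 had 5421 and 4926 against 4229 and 4701 (0.21, adjusted p = 0.173) and STEAP3 had 1144 and 1239 against 1253 and 1042 (0.05, adjusted p = 0.829, both DESeq2), so the STEAP3 groups overlap. Of 16014 genes tested 7.98% were called, 4.66% higher and 3.32% lower.

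In FM no STEAP gene was called between the lines. STEAP1 had 5372 and 5669 normalized counts in KO FM and 4457 and 4953 in Control FM (0.23, adjusted p = 0.118, DESeq2), and STEAP2 had 11959 and 11132 against 9145 and 10094 (0.26, adjusted p = 0.212, DESeq2). Both genes had the KO pair above the control pair by a margin that the fit did not separate from the spread. STEAP3 had 1260 and 1312 against 1230 and 1205 (0.08, adjusted p = 0.698, DESeq2). Of 15000 genes tested 8.01% were called, 5.41% higher and 2.6% lower.

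FM against EtOH compares ordinary serum with starvation and vehicle, which differ in more than hormone. In control cells STEAP1 was higher in FM, 4705 ± 351 against 2269 ± 112 (SD, n = 2), by 1.05 ± 0.11 (log2, SE; adjusted p = 2.42e-20, DESeq2), and by 1.004 or 1.105 (still called) without Control EtOH replicate 1 or 2. STEAP2 was higher by 0.52 (adjusted p = 0.00248) and STEAP3 lower by a log2 change of -0.38 (adjusted p = 0.00462), neither reaching 1.5-fold (DESeq2). The STEAP2 value was 0.75 (called) without Control EtOH replicate 1, 0.60 (called) without Control FM replicate 1 and 0.32 without Control EtOH replicate 2. In control cells 21.3% of 18549 genes were called, and in KO cells 19.3%.

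In KO cells the FM differences were 0.36 for STEAP1 (adjusted p = 0.00394, under 1.5-fold), -0.21 for STEAP2 (adjusted p = 0.307) and -0.14 for STEAP3 (adjusted p = 0.41, all DESeq2). The FM response, KO minus control, was -0.69 for STEAP1 (95% interval -0.99 to -0.39, adjusted p = 0.00149) and -0.73 for STEAP2 (-1.14 to -0.31, adjusted p = 0.0408), both called in DESeq2, against 1.39% of 12971 genes. STEAP3 had 0.24 (adjusted p = 0.474, DESeq2). With edgeR the adjusted p was 0.0687 for STEAP1 and 0.153 for STEAP2, and with TMM size factors in DESeq2 it was 0.0538 for STEAP2. Without Control EtOH replicate 1 or 2 the STEAP1 value was -0.64 or -0.74, both still called. For STEAP1 the call was lost without Control FM replicate 2 (0.158), KO FM replicate 1 (0.0848) or KO EtOH replicate 1 (0.119), and for STEAP2, of the leave-outs, it held only without Control EtOH replicate 1 (-0.96), with adjusted p of 0.106 to 0.474 (DESeq2) when any other sample was left out. The DHT and FM responses and the KO difference in EtOH all use the same Control EtOH libraries and are not independent of each other.

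The order of the groups differed between STEAP1 and STEAP2. For STEAP1, Control EtOH stood alone at the bottom, below every other library, and the 5 groups above it each overlapped the next. For STEAP2 the order rose from Control EtOH through Control DHT, Control FM, KO FM and KO EtOH to KO DHT, and of neighbours only Control DHT and Control FM overlapped. For STEAP3 Control DHT was lowest and KO EtOH and Control EtOH were highest, and the 3 lowest groups (Control DHT, KO DHT and Control FM) overlapped their neighbours.

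The ratio of STEAP2 to STEAP1 counts within a library needs no normalization between libraries. In control cells it was 3.53 and 2.43 with EtOH, 2.4 and 1.88 with DHT and 2.05 and 2.04 in FM. In KO cells it was 3.0 and 3.22 with EtOH, 3.42 and 3.07 with DHT and 2.23 and 1.96 in FM. After DHT both KO libraries were above both control libraries, whereas in EtOH and FM the lines overlapped. As the longer gene STEAP2 collects more reads per molecule, so the ratio compares samples and not the levels of the 2 genes.

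**Figure D3:**
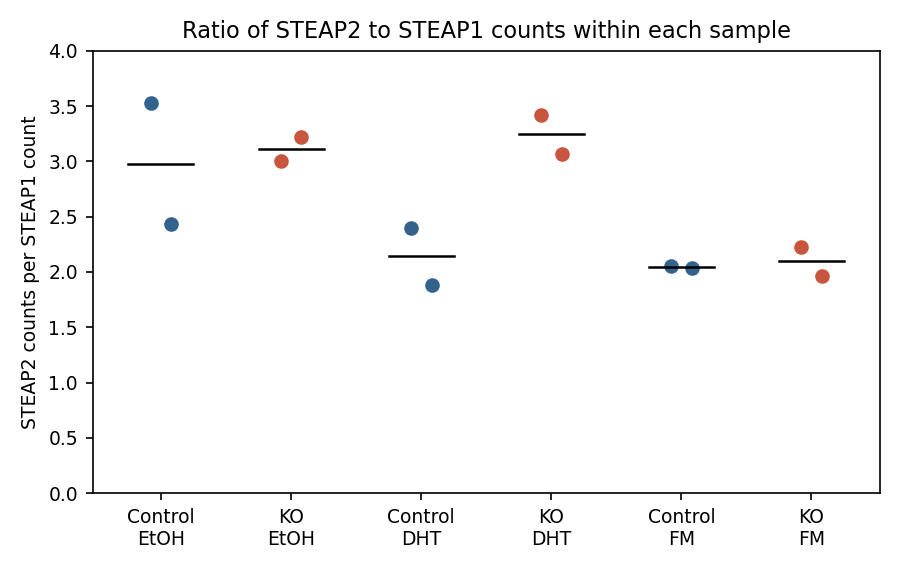
STEAP2 counts per STEAP1 count in each of the 12 samples, by group, with 1 point per sample, a line at the mean, and a y axis from 0. The KO DHT points (3.42 and 3.07) lie above the Control DHT points (2.4 and 1.88), and the FM points of both lines lie between 1.96 and 2.23.

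Genes near STEAP1 were examined because STEAP1 and STEAP2 are neighbours. Within 1 Mb of the STEAP1 start there were 5 other protein-coding genes, of which 4 were tested. CFAP69, a gene of the sperm tail that starts 90.7 kb away, CLDN12, a claudin of cell junctions at 229 kb, and CDK14, a cyclin-dependent kinase at 312 kb, were called as higher with DHT in control cells, and GTPBP10, a mitochondrial GTPase at 181 kb, was not. These were 3 of 4 tested, against 11.4% of all genes. None of the 4 was called with DHT in KO cells, against 7.68% of all genes. CFAP69 and CLDN12 were also called as higher in the KO after vehicle, 2 of 4 against 5.11% of all genes. None of the 4 was called between the lines in DHT or FM, against 7.98% and 8.01% of all genes. For the difference between the DHT responses, CFAP69 was called as lower in the KO, 1 of 4 against 0.408% of all genes. For the FM responses, CFAP69 (-1.4, adjusted p = 8.7e-08) and CLDN12 (-0.6, adjusted p = 0.0142, both DESeq2) were called as lower in the KO. These were 2 of 4 against 1.39% of all genes, and the CLDN12 value was close to the 1.5-fold limit. Whether the neighbourhood stands out from other genes was not tested.

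CFAP69 had 221.7 and 203.9 normalized counts in Control EtOH, 461.4 and 445.9 in Control DHT, 436.3 and 469.6 in KO EtOH and 422.8 and 396.4 in KO DHT. As with STEAP1, the Control EtOH libraries were the low ones. The change with DHT was 1.09 ± 0.15 (log2, SE; adjusted p = 1.9e-11) in control and -0.15 ± 0.14 (adjusted p = 0.646) in KO, and the difference between them was -1.24 (adjusted p = 4.29e-06, DESeq2), which held its call in every alternative. Unlike STEAP1, CFAP69 was lower in KO FM (236.0 and 232.4) than in KO EtOH, with a log2 change of -0.95 (adjusted p = 3.49e-09, DESeq2).

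CLDN12 had 2257 and 2023 normalized counts in Control EtOH, 4084 and 4523 in Control DHT, 3194 and 3255 in KO EtOH and 4694 and 4156 in KO DHT. Its change with DHT was 1.01 in control (adjusted p = 2.9e-18) and 0.46 in KO (adjusted p = 0.000487, under 1.5-fold), and the difference between them was -0.55 (adjusted p = 0.0693, DESeq2). Its KO difference in EtOH, 0.59, was close to the 1.5-fold limit and fell under it without Control EtOH replicate 2 (0.52) or KO EtOH replicate 2 (0.58). CDK14 rose by 0.59 in control and had 0.54 in KO (adjusted p = 1.93e-05 and 0.000184, DESeq2), on opposite sides of the same limit. Its control value fell under the limit without Control EtOH replicate 2 (0.46) or Control DHT replicate 1 (0.55), with edgeR or TMM size factors (0.57 each), and with at least 10 counts in every sample (0.58). Its KO value passed the limit without KO EtOH replicate 2 (0.61) or KO DHT replicate 2 (0.60).

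Around STEAP3, 12 protein-coding genes start within 1 Mb and 8 were tested. C2orf76 and DBI, which encodes an acyl-CoA binding protein, were called as higher with DHT in both lines, by 1.06 and 1.09 in control and 1.16 and 0.83 in KO (log2), while STEAP3 itself had negative values in both. DBI was lower in the KO with DHT (-0.71, adjusted p = 1.02e-05, DESeq2). With FM C2orf76, DBI and CFAP221 were called as higher in both lines. The DHT calls were 2 of 8 in each line, against 11.4% of all genes in control and 7.68% in KO. Between the lines with DHT 1 of 8 was called, against 7.98% of all genes. The FM calls were 3 of 8 in each line, against 21.3% in control and 19.3% in KO.

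**Figure D4:**
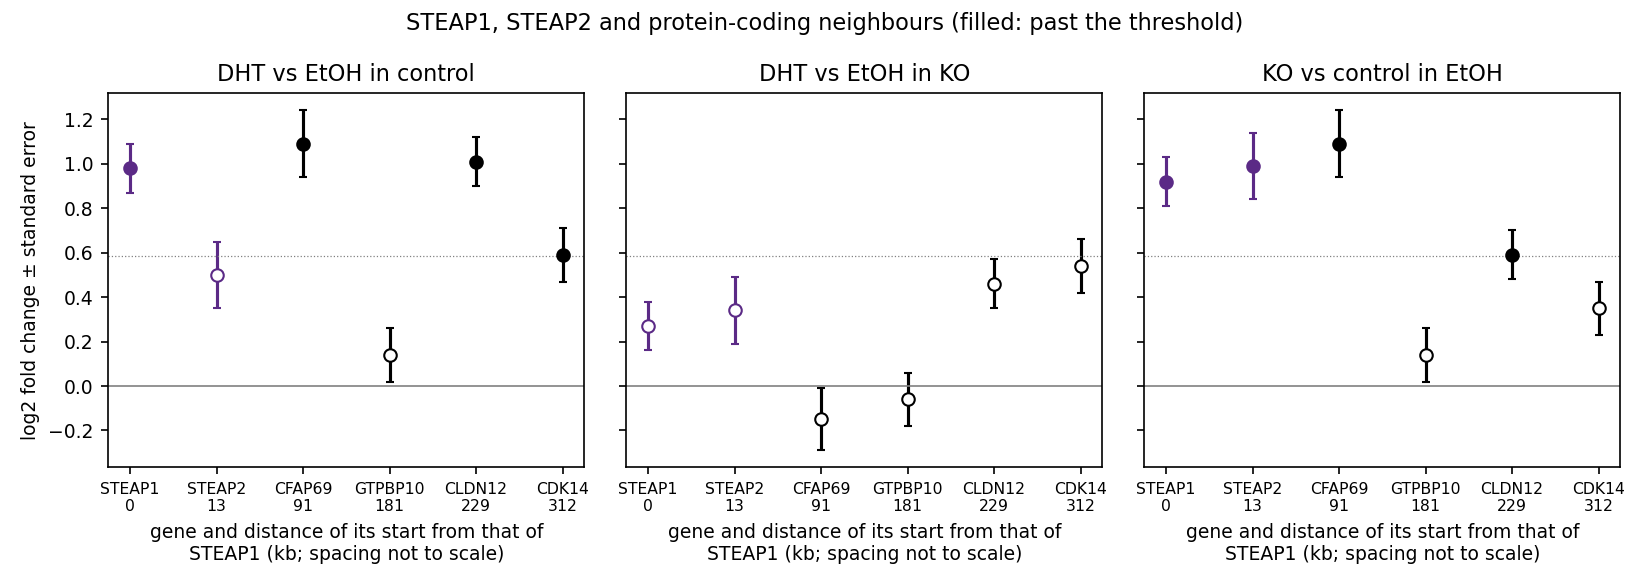
Log2 fold changes with standard errors for STEAP1, STEAP2 (purple) and their protein-coding neighbours (black), ordered by distance of the gene start from that of STEAP1, filled where the threshold was passed. With DHT in control cells STEAP1, CFAP69 and CLDN12 had values of 0.98, 1.09 and 1.01, and in KO cells 0.27, -0.15 and 0.46.

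The STEAP proteins work with other genes of iron and copper handling, of which a list of 47 was examined. Of these, 46 were matched to a counted identifier and 42 had enough counts to be fitted. The identifier matched to NCOA4 held 0 counts in all libraries and may not be the one under which its reads were counted. Its level is therefore unknown here. With DHT in control cells 4 of 39 tested were called (10.3%, against 11.4% of all genes), HMOX1 and FECH higher and TMPRSS6 and BMP6 lower, and the median over the tested list was 0.01 against -0.02 over all genes. In KO cells with DHT 3 of 39 were called, and for the difference between the responses 0 of 33 by DESeq2 and 0 by edgeR, with 2 of the 33 at an unadjusted p under 0.05. For KO against control the list gave 1 of 38 in EtOH, 2 of 36 in DHT and 2 of 33 in FM. Each of these shares is near or below that of all genes in the same comparison. The STEAP genes are not part of the list.

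HMOX1, the haem oxygenase that frees iron from haem, had 212.2 and 251.7 normalized counts in Control EtOH and 338.2 and 431.7 in Control DHT, a rise of 0.73 (log2, adjusted p = 0.00127, DESeq2). The KO DHT libraries, at 217.8 and 235.1, stayed in the range of EtOH. The difference between the HMOX1 responses, KO minus control, was -0.79 and was not called over all genes (adjusted p = 0.349, DESeq2). With DHT, HMOX1 was lower in the KO than in control (-0.77, adjusted p = 0.000955, DESeq2). This call and that of the rise in control share the Control DHT libraries. Both calls rested on few libraries: without Control DHT replicate 2 they were 0.54 (adjusted p = 0.0913) and -0.58 (0.118), and without KO DHT replicate 1 the latter had an adjusted p of 0.0506 (DESeq2).

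FECH, ferrochelatase, which inserts iron into protoporphyrin to make haem, rose with DHT in both lines, by 0.60 in control and 0.82 in KO (adjusted p = 3.11e-10 and 4.43e-19, DESeq2). Its control libraries had 4301 and 4130 normalized counts in EtOH and 6150 and 6592 in DHT, a 1.51-fold change that fell under 1.5-fold without Control EtOH replicate 2 (0.57) or Control DHT replicate 2 (0.54), and with TMM normalization (0.58). BMP6, a signal that induces hepcidin in the liver, fell with DHT in control, from 1025 and 864.4 to 628.0 and 481.2 normalized counts (-0.77, adjusted p = 9.27e-06, DESeq2). In KO cells BMP6 was at 826.3 and 828.2 in EtOH and 846.3 and 808.8 in DHT (0.0, adjusted p = 0.998, DESeq2). The difference of the BMP6 responses was 0.77, with a 95% interval of 0.35 to 1.19, and was not called over all genes.

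TMPRSS6, a membrane protease that dampens hepcidin induction, was higher in the KO in EtOH and DHT. It had 357.2 and 325.6 normalized counts in KO EtOH against 124.7 and 171.1 in Control EtOH (1.21, adjusted p = 1.24e-05, DESeq2), and 173.5 and 207.2 in KO DHT against 51.49 and 67.58 in Control DHT (1.67, adjusted p = 7.71e-09, DESeq2). It fell with DHT in both lines, with log2 changes of -1.31 in control and -0.84 in KO. In FM it had 12.15 to 26.12 counts in the 4 libraries. Like STEAP2, it was thus higher in the KO in both starved conditions, but its response to DHT had the opposite sign.

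The transferrin receptor TFRC and the endosomal iron carrier SLC11A2, chosen for their place beside STEAP3 in iron uptake after their values were seen, were called neither with DHT nor between the lines. TFRC had -0.23 with DHT in control (adjusted p = 0.197) and SLC11A2 had -0.20 (adjusted p = 0.259, both DESeq2). In FM TFRC was lower in the KO, with a log2 difference of -0.37 (adjusted p = 0.0171, DESeq2) that did not reach 1.5-fold. SLC11A2 had -0.19 there (adjusted p = 0.291, DESeq2). Between the lines in FM, FTL, a ferritin subunit, was higher in the KO (4097 and 3925 in control, 5918 and 6373 in KO, 0.62) and FRRS1, a ferric reductase, lower (356.7 and 384.2 against 252.8 and 213.7, -0.67). Ferritin genes have many processed pseudogenes, so the FTL counts are uncertain, and its call was lost without Control FM replicate 2 (0.58) or KO FM replicate 2 (0.56). The FRRS1 call was lost when any of the 4 FM libraries was left out (adjusted p 0.0739 to 0.319, DESeq2).

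**Figure D5:**
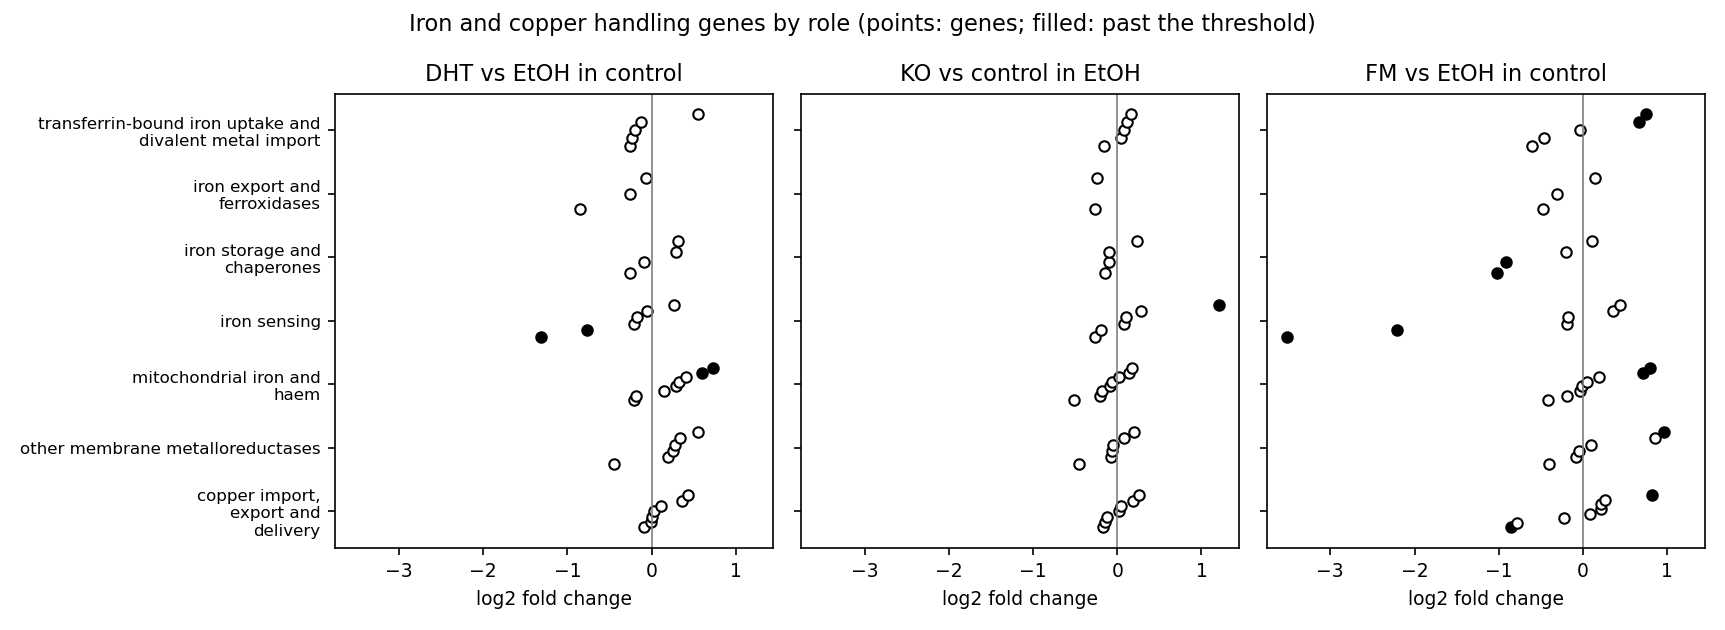
Log2 fold changes of the tested iron and copper genes, grouped by role, for DHT in control, KO against control in EtOH and FM in control, with 1 point per gene, filled where the threshold was passed, on a shared x axis. With DHT in control 4 of 39 points are filled, for KO in EtOH 1 of 38 (TMPRSS6), and for FM in control 11 of 40.

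The genes whose levels followed each STEAP gene most closely were found by Pearson correlation of log2(normalized count + 1) over the 12 samples, among 11103 genes with a symbol and a mean of at least 100 counts. The samples share groups and libraries, so these values describe the pattern only. STEAP1 was followed by DSC1 (r = 0.958), PSMC2 (0.95), APOD (0.949), DYNC1LI1 (0.946) and ANK3-DT (0.935). STEAP2 stood at rank 297 for STEAP1, with 0.726, so that many genes tracked STEAP1 more closely than its neighbour did. STEAP2 was followed by CDK19 (0.961), SNAP91 (0.951), NBEAP1 (0.95), ARID5B (0.947) and PTPN13 (0.943). STEAP3 had an r of -0.771 with STEAP1 and -0.428 with STEAP2. It was followed by SEMA3G (0.962), DEPTOR (0.949), CYB561A3 (0.927), SIK1 (0.924) and NUAK2 (0.924). CYB561A3, itself a membrane reductase of the iron list, had 1285 and 1334 normalized counts in Control EtOH and 1030 and 890.7 in Control DHT. Its change with DHT was called in neither line, at -0.45 in control (adjusted p = 0.00326, under 1.5-fold) and -0.22 in KO (adjusted p = 0.311, both DESeq2).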

How the data were processed

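The deposited values were raw read counts, in a file for each sample. Libraries were made from poly(A) RNA with a stranded TruSeq kit, and per the labels and methods reads were processed with CASAVA 1.7, aligned to GRCh37 with TopHat2 2.0.11 and counted with HTSeq 0.5.3p3. The strand setting, overlap mode and annotation release are not given in the sources used here. HTSeq sets aside reads with several alignments (15.9% to 20.0% of the tallied reads in a sample) or overlapping several genes (6.9% to 7.97%), so genes with near-identical copies are counted low. Its 5 tally lines were left out of library sizes and tests.

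Counts of 63677 identifiers were joined with the GENCODE GRCh37 annotation, which held 55665 of them. Genes with at least 10 counts over all samples (26156) were fitted in DESeq2 1.42.0 (R 4.3.3), with 1 coefficient per group over 12 samples, median-of-ratios size factors, Wald tests and unshrunken fold changes. DESeq2 gives no adjusted p to genes with very low means. Normalized counts are counts divided by size factors, and levels per kilobase divide them by the union of annotated exons. Intervals are 95% Wald intervals, and the floor of 3 counts covers counting error only. The fit was tested on simulated counts. Alternatives were edgeR 4.0.16 (quasi-likelihood, TMM), TMM size factors in DESeq2, no filter, at least 10 counts in every sample, only the samples compared, a replicate block, no fold minimum, and each sample left out in turn.

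The members, gene lists and tests were chosen with earlier results of these data known. Genes named beside the members were the targeted gene, the 3 largest rises and falls of the iron and copper list for DHT in control and for KO against control with a mean of at least 100 normalized counts, called genes within 1 Mb of STEAP1 or STEAP3, and the 5 most alike by Pearson r. STEAP1B was named as a relative, and STEAP2-AS1 and STEAP3-AS1 as antisense genes. GTPBP10 was named as the tested STEAP1 neighbour not called with DHT in control, NCOA4 for its missing counts, and marker genes for cell type. The remaining names are marked as chosen after their values were seen. The sum of the luminal markers leaves out 1 gene that is not reported here.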

Additional observations from a re-analysis of the deposited data

Results flagged for a closer look

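Among the STEAP genes, a response differed between control and KO cells in 3 cases when the difference itself was tested. The DHT response of STEAP1 was smaller in the KO than in control by a log2 difference of -0.71, its FM response by -0.69, and the FM response of STEAP2 by -0.73. All 3 are measured against the same Control EtOH libraries, in which STEAP1 and STEAP2 had their lowest counts. With EtOH, DHT and FM each sequenced in 2 samples per line, the calls depend on single libraries, as given beside each value above. The cause of the differences was not tested.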

How the results depend on the processing

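The calls of STEAP1 and STEAP2 between the lines after vehicle, of STEAP2 between the lines with DHT, and of STEAP1 with DHT and FM in control cells held under all alternatives. With no fold minimum 5 further changes were called: 0.50 for STEAP2 and -0.47 for STEAP3 with DHT in control, 0.52 and -0.38 for the same genes with FM in control, and 0.36 for STEAP1 with FM in KO. The STEAP1 difference in DHT response was not called with edgeR (-0.68) or in a fit of only the samples compared (-0.70), and lay between -0.78 and -0.63 with a sample left out. Its difference in FM response was not called with edgeR (-0.67, and -0.77 to -0.62 with a sample left out), nor was that of STEAP2 with edgeR (-0.71) or TMM size factors (-0.71), and the latter lay between -0.96 and -0.53 with a sample left out. With a sample left out, STEAP2 ranged from 0.29 to 0.73 with DHT and from 0.32 to 0.75 with FM in control, and STEAP3 from -0.61 to -0.34 with DHT in control. Uncalled values near 0 changed sign: the STEAP2 difference in DHT response (0.042 without Control EtOH replicate 2, range -0.396 to 0.042) and STEAP3 between the lines with DHT (-0.073 to 0.19 with a sample left out). The replicate numbers were not taken to pair the samples, since the labels do not say that a number marks a shared batch. The deviations of same-numbered samples had r from -0.415 to 0.692 over 15 pairs of groups and exceeded 0.1 in 6. Those 6 were the pairs among Control EtOH, Control DHT, KO DHT and KO FM (0.159 to 0.692). The highest was Control EtOH with Control DHT, and KO EtOH had r from -0.415 to -0.214 with each of these groups. Whether same-numbered samples share a source of variation was not tested. A replicate block within each line gave -0.023 for STEAP3 between the lines with DHT and -0.001 in FM, a block common to all groups kept the STEAP1 difference in DHT response at -0.71, and neither block changed a STEAP call. Genes called over all comparisons moved as follows. With no fold minimum they were 3491 and 2384 for DHT in control and KO, 1620, 2620 and 2776 for KO against control in EtOH, DHT and FM, and 6478 and 5887 for FM in control and KO. For the difference in DHT response they were 24 with edgeR, 19 with only the samples compared and 16 to 155 with a sample left out, and for FM 65 with edgeR, 281 with the common block and 49 to 2124 with a sample left out (2124 without Control EtOH replicate 1). For KO against control they were 531 in EtOH with only the samples compared, 829 in DHT with the block within each line, and 480 to 1439 in EtOH, 720 to 1556 in DHT and 520 to 901 in FM with a sample left out. Levels per kilobase rose with the longest transcript in place of all exons, and the order of the 4 genes did not change. STEAP4 had no value under the filter of 10 counts in every sample. The cause of these changes was not tested. With 2 samples per group, depth limits STEAP4, and the number of samples limits the others.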

Other observations

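More genes of the iron and copper list were called with FM than with DHT, as was the case over all genes. In control cells 11 of 40 tested genes were called against EtOH (27.5%, against 21.3% of all genes), and in KO cells 6 of 40 (15.0%, against 19.3%). In control cells FECH, FRRS1, SLC25A37 (a mitochondrial iron importer), SLC31A1 (the copper importer CTR1), SLC39A14 (a zinc and iron transporter) and TFRC were higher, and BMP6, CCS (the copper chaperone of superoxide dismutase), FTH1, FTL and TMPRSS6 were lower. FECH, SLC25A37 and SLC39A14 were higher and BMP6, FTH1 and TMPRSS6 lower in KO cells as well. TFRC had 25970 and 27850 normalized counts in Control FM against 18410 and 15350 in Control EtOH, a rise of 0.67 (log2, adjusted p = 2.66e-07, DESeq2), and 0.46 in KO cells (adjusted p = 0.000668, under 1.5-fold). For the difference between the lines in the FM response, 0 of 33 tested list genes passed both the adjusted p and the 1.5-fold limit in DESeq2, 0 were called by edgeR, and 7 had an unadjusted p under 0.05. FECH had an adjusted p of 0.0166 (DESeq2) with a difference of 0.47, under 1.5-fold. Ferritin counts (FTH1, FTL) are uncertain because of their pseudogenes. These genes were named after their values were seen.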
